A study of Mus musculus with 4 samples.

Results

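Integrins and cadherins are the receptors that hold cells to the matrix and to each other. The genes described here are the 46 of the 18091 genes measured whose symbol starts with Itga or Itgb, or is Cdh followed by a number, leaving out the endothelial cadherin Cdh5. They comprise 15 integrin alpha subunits, 9 integrin beta subunits, 4 genes that carry the name of a beta subunit without being one, and 18 cadherins. RNA came from 2 insulinomas of RT2 mice treated with sEphB4-Alb and from 2 insulinomas of RT2 mice treated with PBS, each put on 1 Illumina MouseRef-8 v2.0 array, whose beads each carry a probe for 1 gene and light up with the amount of cRNA they capture.

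Mice of both groups carried the SV40 large T antigen under the insulin promoter, so their tumors start in beta cells, and drank sugar water late in the course. Their background is given as C57/BL6 in the series text, but the sample labels add CD1. By the study's methods the array tumors came from mice with both Dll4 alleles intact (Dll4+/+). The methods place the Dll4+/+ and Dll4+/- mice given sEphB4-Alb or PBS on CD1. sEphB4-Alb, a fusion of albumin with the ectodomain of the receptor EphB4, was injected intraperitoneally at 10 mg/kg, 3 times weekly, starting at 10 weeks and ending at 13.5 weeks of age, and control mice received PBS on the same schedule. There were 6 mice in each group. Which mouse each tumor came from is not stated, so the p-values rest on the spread of these tumors alone.

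An integrin is a pair of one alpha and one beta chain, and the pair sets the ligand. Subunits α3 and α6 bind laminins of basement membranes, α6 pairing with β4 in the hemidesmosomes of epithelia, while α1, α2 and α11 pair with β1 to bind collagens. The αv chain pairs with β3, β5, β6 or β8 to bind vitronectin, fibronectin or latent TGF-beta, and the αL, αM, αX and αD chains pair with β2 on leukocytes. Classical cadherins bind the same cadherin on the neighbouring cell and are tied to actin by catenins. In RT2 mice the loss of E-cadherin, the product of Cdh1, is known to accompany the step between adenoma and invasive carcinoma.

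Median signals were 160 and 169 on the sEphB4-Alb arrays and 136 and 142 on the PBS arrays, so signals were corrected for background, quantile normalized and put on the log2 scale before the groups were compared by limma. The log2 difference of the median gene, sEphB4-Alb minus PBS, was 0.58 before this scaling and -0.01 after it. Normalized values of PBS tumor 1 correlated with those of the other tumors across genes with r between 0.946 and 0.954, while the remaining pairs gave 0.976 to 0.979. Both sEphB4-Alb tumors but neither PBS tumor had Xist above background, and Ddx3y, a Y-linked gene, stood at 6.47 and 7.16 in the sEphB4-Alb tumors, against 8.84 and 9.41 in the PBS tumors, above background on all 4 arrays. The sample labels give no sex, and the study describes the RT2 mice of its tumor volume trials as male. Sex and treatment cannot be told apart here. The insulin gene Ins2 was above background on all 4 arrays, at 13.74 and 13.66 in the sEphB4-Alb tumors and 13.20 and 12.81 in the PBS tumors. Of the 11 beta cell markers listed, Slc2a2 and Pcsk1 were above background on no array. In whole tumors, fewer cells of a type and less RNA per cell cannot be told apart.

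Many of the adhesion genes did not stand clear of the background. The limit for calling a signal above background, set from the dim signals of each array, was 142 and 143 on the sEphB4-Alb arrays and 134 and 132 on the PBS arrays. On all 4 arrays 17 of the 46 genes exceeded it, and 15 exceeded it on none, which is 32.6% of them, against 31.9% of all genes. A gene was tested where both tumors of at least 1 group were above background. This held for 23 of the 46 genes (50%), against 58.6% of all genes. Of these 23 genes, 6 passed through the sEphB4-Alb tumors alone, namely Cdh6, Cdh23, Itga2b, Itgae, Itgb3 and Itgbl1, and were thereby more likely to show a higher value there. The plot of signals against background shows every gene on every array.

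**Figure D1:**
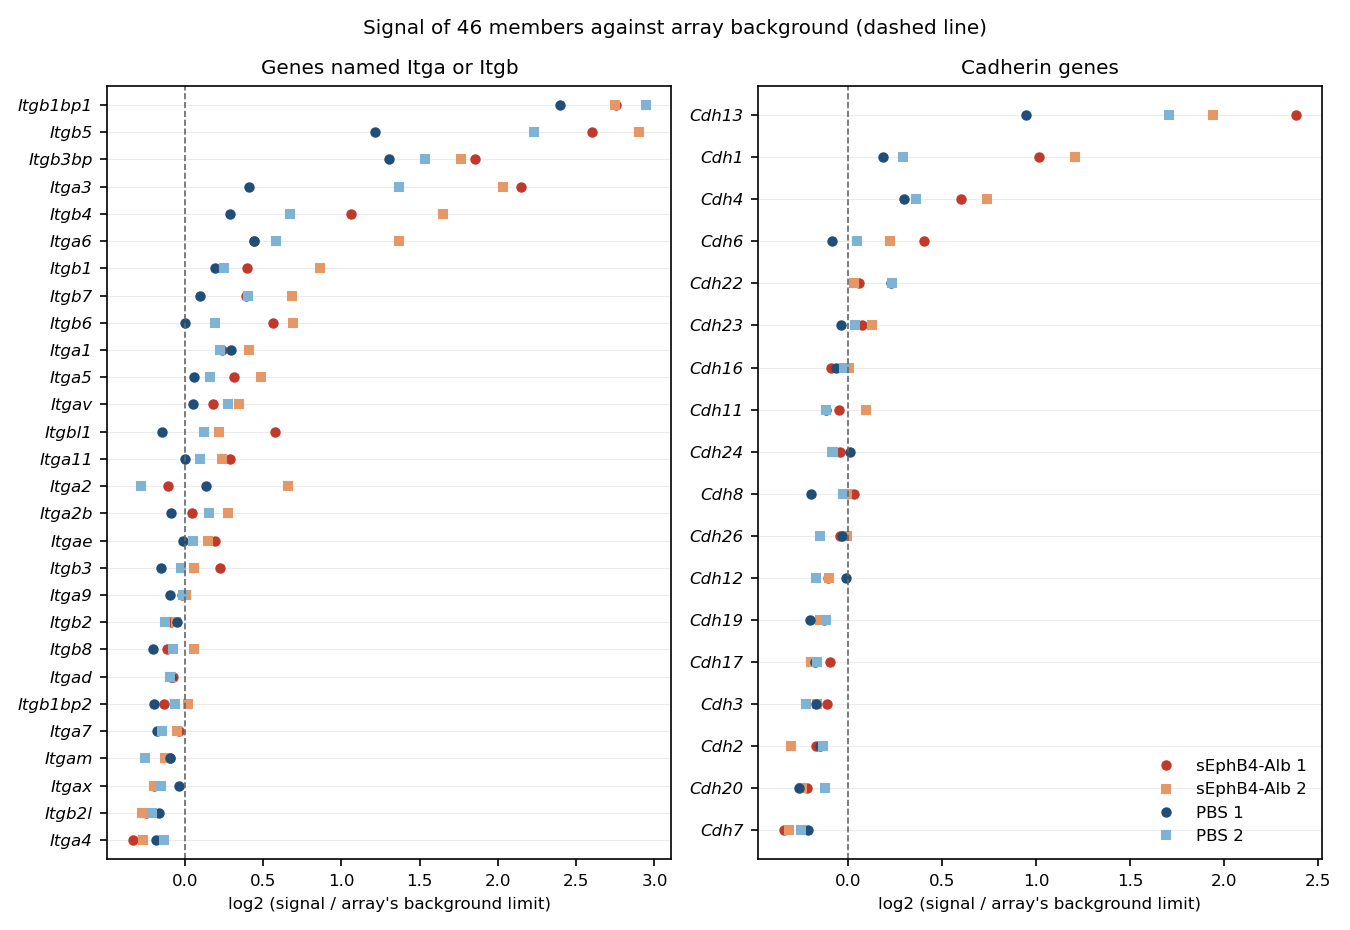
Log2 of the signal over the background limit of its array (x axis) for the 46 genes, one row a gene, in sEphB4-Alb tumors (red and orange) and PBS tumors (dark and light blue), before any normalization. The dashed line is the limit, and 15 genes lie left of it on all 4 arrays.

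No integrin or cadherin gene passed an adjusted p of 0.05 from limma, and none passed the pair of thresholds in the study's methods, a 2-fold change with an unadjusted p of 0.05. Over all 10596 genes tested, 0% passed the adjusted threshold, and 0.953% passed the fold and unadjusted thresholds with a higher and 0.16% with a lower signal in the sEphB4-Alb tumors. These were 101 and 17 genes, against 294 and 7 when arrays were scaled by their medians instead, without setting genes against the median gene. At an unadjusted p of 0.05 from limma alone, 4 of the 23 genes were higher (Cdh1, Itga3, Itgb4 and Itgb6), against 3.77% of all genes, and 2 were lower (Cdh22 and Itgb1bp1), against 2.69%. As each tumor was left out, the log2 fold change ran from 0.56 to 0.85 for Cdh1 and from 0.51 to 1.20 for Itga3. It ran from 0.34 to 0.74 for Itgb4 and from 0.40 to 0.54 for Itgb6. For Cdh22 it ran from -0.77 to -0.44 and for Itgb1bp1 from -0.78 to -0.41. After median scaling 0 were lower, but that count did not set genes against the median gene, which then lay at 0.25. Against the median gene, Cdh1 (unadjusted p = 0.0189 from limma) and Cdh22 (unadjusted p = 0.0148 from limma) passed, and Itga3, Itgb4, Itgb6 and Itgb1bp1 did not. Without moderation of the variances across genes the counts were 2 higher and 0 lower, with the share over all genes not computed in that setting. With 2 tumors against 2, a two-sided exact permutation test cannot go below p = 0.33 for any single gene.

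By order, the sEphB4-Alb pair exceeded the PBS pair in 10 of the 23 genes, against 18.5% of all genes tested, and stood below it in 3, against 20.7%. Among genes above background on all 4 arrays the counts were 7 and 3 of 17, against 14.9% and 23.3% of such genes. The log2 fold change, the difference of mean normalized log2 signals, ran from -0.59 to 0.85 over the 23 genes with a median of 0.11, beside a median of -0.01 over all genes tested. Relative to the median gene the median of the 23 genes was 0.12, and it was -0.03 when arrays were scaled by their medians. The log2 fold change was above 0 for 16 of the 23 genes, beside 5065 of all 10596 genes tested, and against the median gene under median scaling for 10 of the 23. Genes that passed through the sEphB4-Alb tumors alone are in the count of 16, and among genes above background on all 4 arrays it was 10 of 17, beside 3664 of 8718. By class those 10 were 5 of 5 beta subunits, 3 of 6 alpha subunits, 2 of 4 cadherins and 0 of 2 other proteins, of which 4, 2, 2 and 0 lay above the median gene under median scaling.

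**Figure D2:**
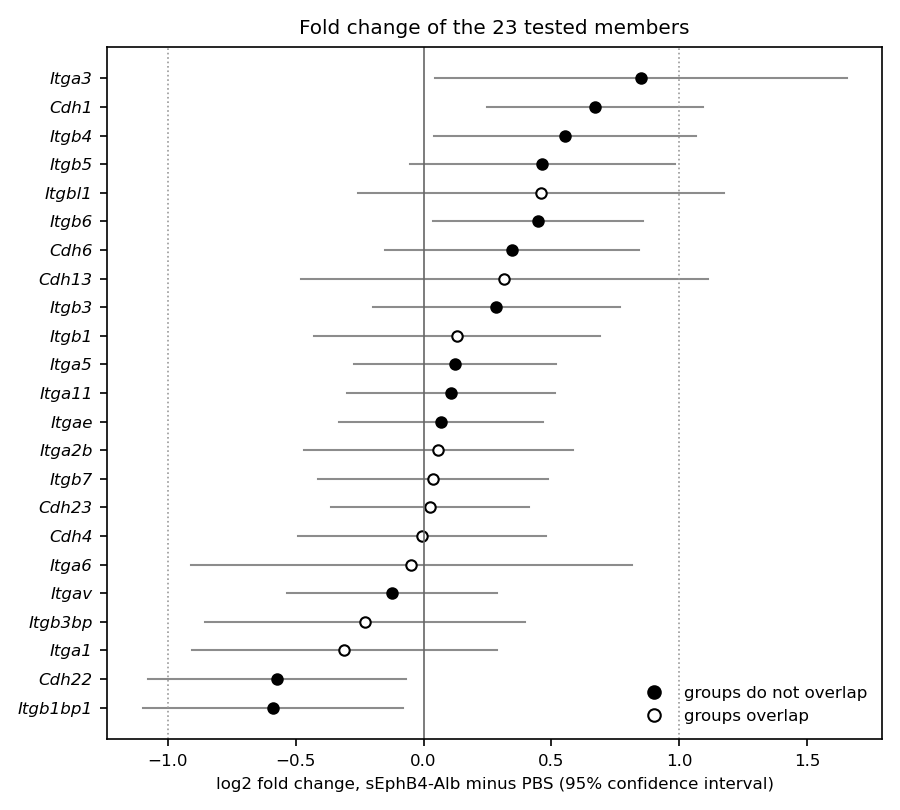
Log2 fold change of sEphB4-Alb over PBS with its 95% confidence interval from limma (x axis) for the 23 tested genes (rows). Filled points mark genes whose tumors do not overlap between groups, dotted lines mark 2-fold, and the point estimates lie between -0.59 and 0.85.

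Of the laminin-binding chains, Itga3 and Itgb4 had an unadjusted p under 0.05 from limma and Itga6 did not. Against the median gene under median scaling, and without moderation, neither Itga3 nor Itgb4 passed that threshold. Itga3, the α3 chain of the laminin receptor α3β1, had normalized log2 signals of 8.94 and 8.51 in the sEphB4-Alb tumors, against 7.52 and 8.24 in the PBS tumors. All 4 arrays measured it above background, and PBS tumor 1 was lowest. The difference came to 0.85 on the log2 scale (95% confidence interval 0.04 to 1.66, standard error 0.31, adjusted p = 0.743 from limma). It was 0.51 without PBS tumor 1. Itgb4, the β4 chain of hemidesmosomes, was at 7.71 and 8.10 in the sEphB4-Alb tumors and at 7.30 and 7.40 in the PBS tumors. For Itgb4 the log2 fold change was 0.55 (standard error 0.20, adjusted p = 0.743 from limma), and 0.34 without sEphB4-Alb tumor 2. Itga6, the partner of β4, overlapped between groups, at 6.95 and 7.81 in the sEphB4-Alb tumors and 7.58 and 7.27 in the PBS tumors. Its log2 fold change was -0.05 (95% confidence interval -0.91 to 0.82), and the sign turned without sEphB4-Alb tumor 1 (0.38), without PBS tumor 1 (0.11) and, against the median gene, under median scaling (0.021). The highest Itga6 signal was that of sEphB4-Alb tumor 2.

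Promoters of 3 genes with an unadjusted p under 0.05 are shown, as 250 bases before the start of the gene in RefSeq's GRCm38.p6 annotation, for 2 genes that were higher and 1 that was lower in the sEphB4-Alb tumors. The promoter table held 29 of the 46 genes and 4 of the 6 with such a p, and Cdh1 and Itgb4 were not among them. Capitals mark the GC box GGGCGG, which Sp1 family factors bind, and the E-box CAGGTG, which Snail and Zeb factors bind in epithelial promoters, each searched on both strands and without overlap between them.
Itga3, chr11:95076715-95076964, minus strand: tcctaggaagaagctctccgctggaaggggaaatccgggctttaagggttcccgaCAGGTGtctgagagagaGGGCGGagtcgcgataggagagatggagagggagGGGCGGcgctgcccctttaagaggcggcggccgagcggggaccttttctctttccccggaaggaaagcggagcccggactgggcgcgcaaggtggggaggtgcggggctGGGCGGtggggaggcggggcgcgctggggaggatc
Itgb6, chr2:60722604-60722853, minus strand: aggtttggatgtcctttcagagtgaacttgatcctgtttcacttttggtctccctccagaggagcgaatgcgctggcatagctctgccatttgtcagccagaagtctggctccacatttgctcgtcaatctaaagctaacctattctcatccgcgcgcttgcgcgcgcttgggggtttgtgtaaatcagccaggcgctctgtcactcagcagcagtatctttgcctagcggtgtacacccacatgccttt
Cdh22, chr2:165234738-165234987, minus strand: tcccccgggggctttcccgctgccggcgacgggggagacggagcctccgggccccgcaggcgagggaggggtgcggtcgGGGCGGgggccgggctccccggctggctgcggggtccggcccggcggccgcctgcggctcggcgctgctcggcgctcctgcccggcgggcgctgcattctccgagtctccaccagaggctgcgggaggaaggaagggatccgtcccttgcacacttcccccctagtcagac
The Itga3 window held 3 GC boxes and 1 E-box, the Itgb6 window neither, and the Cdh22 window 1 GC box. Of 32851 promoter windows of this length, 32.7% held a GC box and 17.2% such an E-box. A match describes letters only. The table gives Itga3 and Itgb6 a second start each, with windows, not shown, that hold 1 GC box and no E-box for Itga3 and 1 E-box and no GC box for Itgb6. The window of Itgb1bp1, the fourth gene, held neither motif.

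Among the αv integrins, the β5 and β6 chains had higher values in the sEphB4-Alb tumors and the alpha chain did not. Itgb5, whose product pairs with αv to bind vitronectin, was at 9.45 and 9.40 in the sEphB4-Alb tumors, against 8.76 and 9.17 in the PBS tumors, above background throughout. PBS tumor 1 was again lowest, and the groups did not overlap. Itgb5 had a log2 fold change of 0.47 (95% confidence interval -0.05 to 0.99, standard error 0.20, adjusted p = 0.743 from limma), and 0.26 without PBS tumor 1. Itgb6, the epithelial chain of αvβ6 that activates latent TGF-beta, was at 7.09 in each sEphB4-Alb tumor and at 6.56 and 6.73 in the PBS tumors. In PBS tumor 1 its unnormalized signal of 134.35 barely passed the limit of 134.07. For Itgb6 the log2 fold change was 0.45 (standard error 0.16, adjusted p = 0.743 from limma), and 0.30 relative to the median gene when arrays were scaled by their medians. Itgb3, the chain of αvβ3 found on angiogenic endothelium and, paired with αIIb, on platelets, exceeded background on both sEphB4-Alb arrays (6.67 and 6.40) but on neither PBS array (6.14 and 6.36). It was tested because of the sEphB4-Alb arrays alone, with an adjusted p of 0.769 from limma, and no direction can be read, since its log2 fold change was 0.29 as normalized and -0.10 against the median gene under median scaling.

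Itgav itself, the common partner of these chains, was at 6.61 and 6.72 in the sEphB4-Alb tumors, just below 6.72 and 6.85 in the PBS tumors. The log2 fold change of -0.12 (95% confidence interval -0.53 to 0.29) was within the spread between tumors, and it was -0.32 against the median gene under median scaling (unadjusted p = 0.196 from limma). Itgb8 was above background in 1 sEphB4-Alb tumor and in no PBS tumor.

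Itgb1, the beta chain shared by most matrix-binding integrins, was measured above background on all 4 arrays and overlapped between groups, at 6.88 and 7.28 in the sEphB4-Alb tumors and 7.09 and 6.81 in the PBS tumors. Between groups it differed by 0.13 on the log2 scale (95% confidence interval -0.43 to 0.69). The fibronectin receptor chain Itga5, which endothelial cells use during sprouting, was at 6.78 and 6.87 in the sEphB4-Alb tumors, against 6.72 and 6.68 in the PBS tumors. Its log2 fold change of 0.12 (95% confidence interval -0.27 to 0.52) was -0.04 against the median gene under median scaling. Of the collagen receptor chains, Itga1 was at 6.68 and 6.79 in the sEphB4-Alb tumors and at 7.31 and 6.78 in the PBS tumors, so that PBS tumor 1 alone stood out. Itga1 had a log2 fold change of -0.31 (95% confidence interval -0.91 to 0.29), -0.05 without PBS tumor 1 and -0.57 without PBS tumor 2. Itga11, the chain of fibroblasts, was above background on all 4 arrays, in PBS tumor 1 at a signal of 134.20 beside a limit of 134.07. Its log2 fold change was 0.11 (standard error 0.16), and -0.14 against the median gene under median scaling. Itga2 was above background in sEphB4-Alb tumor 2 and PBS tumor 1 only.

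**Figure D3:**
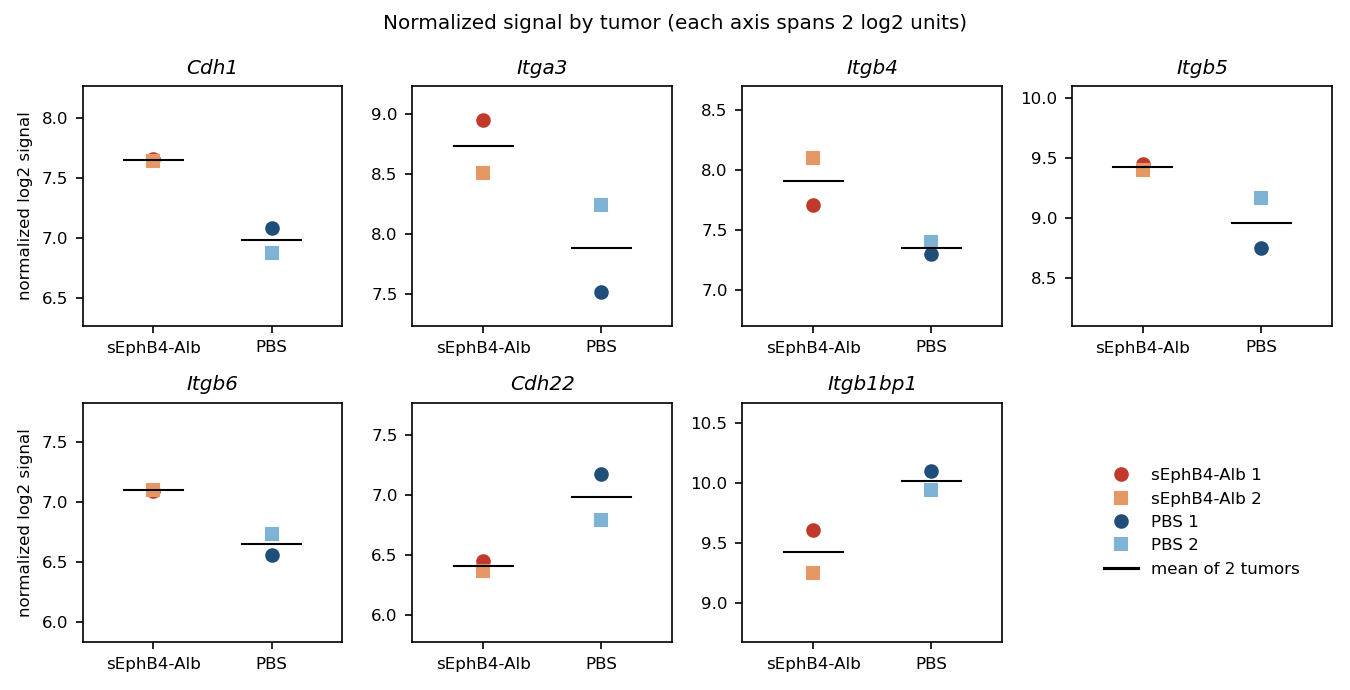
Normalized log2 signal (y axis, each panel spanning 2 log2 units) of 7 genes in sEphB4-Alb tumors (left in each panel) and PBS tumors (right), with the mean of 2 tumors as a line. The groups do not overlap in any of the 7, with sEphB4-Alb on top in the first 5 genes and below in Cdh22 and Itgb1bp1.

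E-cadherin was higher in the sEphB4-Alb tumors at an unadjusted p of 0.05 from limma, but not after adjustment. Cdh1, which joins epithelial and islet cells at adherens junctions, was at 7.66 and 7.64 in the sEphB4-Alb tumors, against 7.08 and 6.87 in the PBS tumors. Unnormalized signals were 287 and 331 on the sEphB4-Alb arrays and 152 and 161 on the PBS arrays. The log2 fold change was 0.67 (95% confidence interval 0.25 to 1.09, standard error 0.16, adjusted p = 0.743 from limma), with 0.56 to 0.85 as each tumor was left out and 0.70 against the median gene under median scaling. Cdh6, a type II cadherin known from kidney, was at 6.90 and 6.58 in the sEphB4-Alb tumors and at 6.29 and 6.50 in the PBS tumors, of which 1 was above background. The log2 fold change of 0.35 (standard error 0.19) was 0.18 without sEphB4-Alb tumor 1 and 0.045 against the median gene under median scaling. Cdh13, the GPI-anchored T-cadherin that binds adiponectin, was at 9.20 and 8.41 in the sEphB4-Alb tumors and 8.37 and 8.62 in the PBS tumors, with overlap. Cdh13 had a log2 fold change of 0.32 (95% confidence interval -0.48 to 1.11), and -0.08 without sEphB4-Alb tumor 1.

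Cdh22, a cadherin known from brain and pituitary, ran the other way. It was at 6.45 and 6.37 in the sEphB4-Alb tumors, against 7.17 and 6.79 in the PBS tumors, with a log2 fold change of -0.57 (95% confidence interval -1.08 to -0.07, standard error 0.19, adjusted p = 0.743 from limma). Its unnormalized signals of 148 and 146 on the sEphB4-Alb arrays were also below those of 157 and 155 on the PBS arrays. The limits on these arrays were 142 and 143 for sEphB4-Alb and 134 and 132 for PBS. For Cdh22 the log2 fold change was -0.76 against the median gene under median scaling and -0.44 without PBS tumor 1. Cdh4, R-cadherin, was level, at 7.15 and 7.13 in the sEphB4-Alb tumors and 7.32 and 6.97 in the PBS tumors (log2 fold change -0.01, 95% confidence interval -0.49 to 0.48). The groups overlapped for Cdh23, the tip-link cadherin of hair cells, with both sEphB4-Alb tumors and 1 PBS tumor above background.

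N-cadherin was not measured above background. Cdh2, which beta cells, neurons and mesenchymal cells use, had signals of 126 and 116 on the sEphB4-Alb arrays and 121 and 120 on the PBS arrays, below background on every array. Cdh3, Cdh7, Cdh12, Cdh17, Cdh19, Cdh20 and Cdh26 were likewise above background on no array. Cdh8, Cdh11 and Cdh16 were above it in 1 sEphB4-Alb tumor, and Cdh24 in 1 PBS tumor. Cdh11, the cadherin of fibroblasts, had signals of 137 and 153 on the sEphB4-Alb arrays and 124 and 121 on the PBS arrays. A signal below background gives only a bound for that probe. The endothelial cadherin Cdh5, outside the group by definition, was above background in 1 tumor of each group.

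The leukocyte integrins were mostly below background although macrophage genes were measured. Itgam, Itgax, Itgad, Itga4, Itgb2 and its relative Itgb2l exceeded the limit on no array. The signals of Itgb2, the chain common to all β2 integrins, were 134 and 138 on the sEphB4-Alb arrays and 130 and 120 on the PBS arrays. Those of Itgam, the αM chain of macrophages and neutrophils, were 133 and 131 on the sEphB4-Alb arrays and 126 and 110 on the PBS arrays. All 14 listed macrophage genes in the table were above background on all 4 arrays. Their median level was 8.73 and 8.34 in the sEphB4-Alb tumors and 8.67 and 8.40 in the PBS tumors, with overlap. Of 3 listed markers of leukocytes in general, Coro1a and Laptm5 were above background on all 4 arrays and Ptprc on none. Itgb7, the chain of gut-homing lymphocytes, was above background throughout, at 6.87 and 7.08 in the sEphB4-Alb tumors and 6.85 and 7.03 in the PBS tumors. Itgae, its partner on intraepithelial T cells, exceeded background on both sEphB4-Alb arrays and 1 PBS array.

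Itga2b, the platelet chain that pairs with β3, was at 6.43 and 6.64 in the sEphB4-Alb tumors and at 6.30 and 6.67 in the PBS tumors, of which 1 was above background. Its log2 fold change was 0.06 (95% confidence interval -0.47 to 0.58), and -0.26 against the median gene under median scaling. Of the platelet markers Gp9 was above background on all 4 arrays and Ppbp on none. Itga7, a laminin-binding chain of muscle, was above background on no array. Itga9, a chain needed by lymphatic vessels, was above it in 1 sEphB4-Alb tumor and no PBS tumor.

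Of the genes that only share the name of a beta chain, Itgb1bp1 had an unadjusted p under 0.05. It encodes ICAP-1, which binds the tail of β1 and holds the integrin inactive, and was at 9.61 and 9.25 in the sEphB4-Alb tumors, against 10.10 and 9.94 in the PBS tumors. The log2 fold change was -0.59 (95% confidence interval -1.10 to -0.08, standard error 0.20, adjusted p = 0.743 from limma). Its unnormalized signals overlapped, however, at 959 and 964 on the sEphB4-Alb arrays and 705 and 1012 on the PBS arrays, and after median scaling it stood at -0.38 against the median gene. Itgb3bp, a centromere protein, was at 8.61 and 8.23 in the sEphB4-Alb tumors and 8.87 and 8.43 in the PBS tumors, with overlap. Itgbl1, a secreted protein with integrin-like repeats, was at 7.11 and 6.58 in the sEphB4-Alb tumors and 6.14 and 6.62 in the PBS tumors, of which 1 was above background. Itgb1bp2, the muscle protein melusin, was above background in 1 sEphB4-Alb tumor only.

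Genes that work with these receptors were counted against the same background, 3.77% of all genes higher and 2.69% lower at an unadjusted p under 0.05 from limma. Of 10 listed cadherin partners 7 were in the table and 3 were tested, with 0 past that threshold in either direction. Ctnnb1, beta-catenin, was at 10.34 and 10.32 in the sEphB4-Alb tumors and 10.20 and 10.08 in the PBS tumors, while Ctnnd1, the p120 catenin, was above background on no array. Of 24 listed integrin adaptors 19 were in the table and 16 were tested, with 1 higher (Actn1, an actin crosslinker, log2 fold change 0.42, standard error 0.16) and 0 lower at that threshold. The list of ligands left out collagens and laminins. Of its 15 ligands 14 were in the table and 10 were tested, with 1 higher and 0 lower. The higher ligand was Fbn1, the microfibril protein fibrillin, at 9.85 and 9.49 in the sEphB4-Alb tumors, against 9.06 and 8.84 in the PBS tumors (log2 fold change 0.72, standard error 0.20, adjusted p = 0.743 from limma). The medians of these lists were 0.19, -0.04 and 0.26, beside -0.01 over all genes.

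Markers of duct epithelium had higher values in the same tumors as Cdh1, Itga3, Itgb4 and Itgb6, and so did many markers of other cell types given below. All 8 duct markers in the table, of which Spp1 is also an integrin ligand, differed upward in the sEphB4-Alb tumors by a median of 0.87 on the log2 scale. In 7 of them the groups did not overlap, against 18.5% of all genes tested, and 5 had an unadjusted p under 0.05 from limma, against 3.77%. Krt19, Muc1 and Sox9 are among the 7 and were tested because of the sEphB4-Alb tumors alone. Their median level was 7.86 and 8.28 in the sEphB4-Alb tumors, against 6.97 and 7.26 in the PBS tumors, and their summed signal on the log2 scale was 11.60 and 11.77 in the sEphB4-Alb tumors, against 10.13 and 11.11 in the PBS tumors. Without normalization between arrays the median level was 8.07 and 8.80 in the sEphB4-Alb tumors, against 6.55 and 7.18 in the PBS tumors. In that setting the median gene itself lay 0.58 higher in the sEphB4-Alb tumors on the log2 scale. No duct marker was below background on all arrays. Krt19 and Muc1 were above it in 1 PBS tumor and Sox9 in none. Markers of acinar cells summed to 12.96 and 15.75 in the sEphB4-Alb tumors and 10.83 and 13.50 in the PBS tumors, with overlap and the highest sum in sEphB4-Alb tumor 2, where Itgb4 and Itga6 were also highest. Endothelial markers summed to 11.34 and 11.53 in the sEphB4-Alb tumors and 11.14 and 11.58 in the PBS tumors, again with overlap and with 1 of 11, Kdr, above background on no array. Mural cell markers summed to 11.67 and 11.44 in the sEphB4-Alb tumors and 11.16 and 11.01 in the PBS tumors. Of 8 tested mural markers, 5 were higher without overlap and 1 was lower. Beta cell markers summed to 14.66 and 14.49 in the sEphB4-Alb tumors and 14.00 and 14.07 in the PBS tumors. Without overlap, 5 of 8 beta cell markers were higher, as were 4 of 5 T and NK cell and 8 of 14 macrophage markers. The share over all genes tested was 18.5%. Of the tested markers of these cell types 0 were lower, against 20.7% of all genes tested. Slc2a2 and Klrd1 had lower values without overlap, but were above background on no array and not tested. The higher T and NK cell markers, Cd3e, Cd3g, Cd2 and Nkg7, were tested because of the sEphB4-Alb tumors alone. So were Pdx1, Nkx6-1 and the mural marker Pdgfrb. Genes tested in this way were more likely to show a higher value there. Of 5 tested fibroblast markers 1 (Col1a1) was higher without overlap and 0 were lower. Of 2 tested markers each for B cells, neutrophils and platelets, 0 were higher without overlap. Among these, 1 neutrophil and 1 platelet marker were lower. The part of any of these cell types in the values of Cdh1, Itga3, Itgb4 and Itgb6 was not tested.

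**Figure D4:**
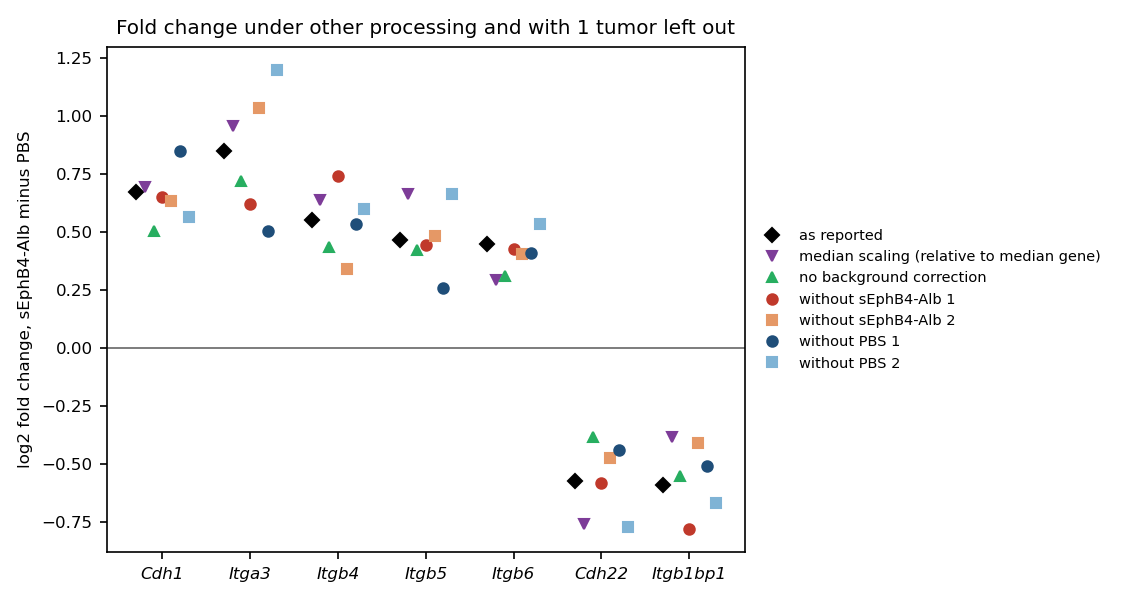
Log2 fold change of sEphB4-Alb over PBS (y axis) for 7 genes as reported (black), under other processing (purple, green) and with each tumor left out (red, orange, blue). The sign of each gene is the same in every setting drawn, while Itga3 ranges from 0.51 to 1.20 as tumors are left out.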

How the data were processed

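Per the labels, RNA was cleaned, checked and labelled with biotin as cRNA. The authors deposited an intensity for each gene symbol and array, on a linear scale. The lowest signal of each array was between 92.1 and 100.4 and medians differed between arrays, so the deposited intensity values were taken as neither background-subtracted nor scaled. How the signals were extracted is not given in the sources used here. In a second table, 8 columns have headings that match no single sample and were not used. They include detection p-values, so background was set from the signals instead. The limit is the mode of an array's signals plus 1.645 times the root mean square distance of the signals below the mode, with the mode read from signals under 1.5 times the median.

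Signals were corrected by normexp (offset 50), which replaces the neqc step planned for values with detection columns, quantile normalized and compared by limma 3.58.1 (R 4.3.3; lmFit, then eBayes), with 2 residual degrees of freedom. Benjamini-Hochberg adjustment covered all genes tested, and adjusted p-values in the text come from this fit. The genes, marker lists and tests were chosen with earlier results of these data known. Full values are given for tested genes whose groups do not overlap at a log2 fold change of at least 0.5 either way, for the 4 integrins and 3 cadherins of highest mean signal, and for a list of vessel, laminin-binding, leukocyte and platelet integrins and main cadherins. Other values, such as those of Itgb6 and Cdh6, were added after they were seen. All 46 symbols matched a RefSeq symbol of GRCm38.p6. The comparison by limma was tested on simulated log2 values, but the background limit, background correction and normalization were not. The number of arrays limits the precision. Figures were drawn with matplotlib 3.10.9.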

Additional observations from a re-analysis of the deposited data

How the results depend on the processing

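Over all genes, 101 higher and 17 lower genes passed 2-fold and an unadjusted p of 0.05 from limma. These counts were 66 and 7 without background correction, 294 and 7 after median scaling, 1089 and 3 with no normalization between arrays, 66 and 15 among genes measured above background on every array, 32 and 8 without moderation, and 267 and 123 at a fold threshold of 1.5. Of the integrin and cadherin genes, 1 was higher after median scaling, 5 without normalization between arrays, and 2 higher and 1 lower at a fold threshold of 1.5, against 0 and 0 as reported. Counts under median scaling and without normalization between arrays were not set against the median gene. As each tumor was left out, the counts ran from 96 to 297 and from 29 to 167 over all genes and over the adhesion genes from 0 to 1 (higher), with 0 lower each time. Genes with an adjusted p under 0.05 numbered 0, and 1 (no adhesion gene) without moderation, while 399 higher and 285 lower genes had an unadjusted p under 0.05 from limma. The exact Mann-Whitney-Wilcoxon test gave 0, which was fixed in advance, since its p cannot go below 0.33 with 2 tumors against 2. The 10 higher and 3 lower adhesion genes whose groups do not overlap became 18 and 1 without normalization between arrays. They became 13 and 9 with no filter on dim genes, and 12 to 15 and 4 to 6 as each tumor was left out. The share over all genes was not set beside these counts, so their changes show nothing particular to adhesion genes. Without normalization between arrays the median gene itself lay at 0.58. With no filter all 46 genes were counted, and with a tumor left out groups overlap less easily.

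With the replicate number as a block, 155 higher and 22 lower genes passed the fold and unadjusted thresholds and no adhesion gene did. Deviations of same-numbered tumors from their group means correlated at 0.04. What same-numbered tumors share beyond the number is not stated, and a single correlation cannot settle it. Relative to the median gene, which scaling moved to 0.25 (median scaling) and 0.58 (no normalization between arrays), the sign turned for Itga6 (0.021), Itgb3 (-0.10), Itga5 (-0.037), Itga2b (-0.26), Cdh23 (-0.30), Itga11 (-0.14), Itgae (-0.23) and Itgb7 (-0.061), with the same values under both. These are 8 of the 23 genes, and values for those given no fold change at first were added after seeing the data. As tumors were left out, Itga6 ran from -0.45 to 0.38, Cdh13 from -0.077 to 0.70, Itgb1 from -0.060 to 0.32, Itga2b from -0.15 to 0.25, Itgb7 from -0.062 to 0.14 and Cdh4 from -0.18 to 0.19. The cause was not tested. With a stricter background limit, 21 of the 23 genes were still tested, and Itga2b and Itgb3 were not. That limit was the one run, since detection columns could not be matched to samples. A comparison with the second deposited table was not run for the same reason. Signals near background limit what can be read from the dim genes.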
